A study of Mus musculus with 6 samples.

Results

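Integrins and laminins are the receptors and ligands that fasten a muscle fibre to the sheath around it, and 39 of 23314 genes in the deposited table belong to them by name. The members were all rows whose symbol begins with Itga, begins with Itgb and a digit, or is a laminin alpha, beta or gamma chain, and which were above 0 FPKM in at least 3 of the 6 libraries. FPKM is a level scaled by transcript length and library size. Of 41 rows with such names 39 met that condition: 17 integrin alpha chains, 8 integrin beta chains, 11 laminin chains and 3 proteins named for binding an integrin beta tail, which are not chains. Itga2 and Lama1 were just inside it, each above 0 in 3 libraries at 0.0417 FPKM or less. Itgad and a second row named Itgam, a gene that shares exonic bases with Itgam, were just outside it, each above 0 in 1 library.

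The libraries came from the quadriceps, the large muscle of the front thigh, of mice 2 months old. K15SKO mice carried 1 copy of a Cre recombinase driven by Myogenin together with Klf15 flanked by loxP sites on both chromosomes (Myogenin-Cre/+;K15F/F). MyoCre mice carried the same Cre copy alone (Myogenin-Cre/+), so both groups carry Cre. Each group held 3 libraries, and the design text speaks of n = 4. Myogenin is switched on in differentiating muscle cells, so the deletion is aimed at muscle cells, and not at the vessels, nerves and leukocytes of the tissue. The comparison asks which quadriceps transcripts differ once Klf15, a zinc-finger transcription factor, is deleted there. No label ties each library to an animal of its own, so p-values here reflect only how much these 6 samples vary, which may be technical. Values per library run from replicate 1 to replicate 3.

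An integrin is a pair of 1 alpha and 1 beta chain that spans the cell membrane, binds matrix outside and links to actin inside through talin, kindlin and integrin-linked kinase. A laminin is a cross-shaped trimer of 1 alpha, 1 beta and 1 gamma chain and is the main cell-binding protein of a basement membrane. Mature muscle fibres are known for the integrin of Itga7 and Itgb1, which binds the laminin of Lama2, Lamb2 or Lamb1, and Lamc1, and loss of Lama2 or Itga7 causes muscular dystrophy. Leukocytes carry their own integrins built on Itgb2, and blood vessel walls contain laminins with Lama4 or Lama5.

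Klf15 was listed at 2.22, 21.7 and 5.32 FPKM in K15SKO, against 35.2, 28.4 and 30.5 FPKM in MyoCre. The K15SKO libraries were thus at 7.08%, 69.3% and 17.0% of the MyoCre mean (limma adjusted p = 0.273). The exact two-sided permutation p was 0.1, the smallest that 3 against 3 libraries can give. Sums of FPKM lay between 396375 and 466756, and depth relative to MyoCre 1, read from the steps between low values, lay between 0.745 and 1.56. Absolute depth is unknown. The K15SKO libraries stood apart from each other: log2 values of K15SKO 3 correlated at 0.968 to 0.975 with the MyoCre libraries, and at 0.942 and 0.880 with K15SKO 1 and 2. Summed levels of 8 liver genes were 58.5, 4705 and 10.4 FPKM in K15SKO and 0.790 to 3.30 FPKM in MyoCre. They were highest in K15SKO 2, which also had the most Klf15 among the K15SKO libraries. The part of liver transcripts in the level of Klf15 and in the results below was not tested. The 10 markers of skeletal fibres, the labelled tissue, summed to 23499, 22565 and 35027 FPKM in K15SKO, against 29861, 29685 and 34252 FPKM in MyoCre. K15SKO 1 and 2 thus lay below the MyoCre range and K15SKO 3 above it. The part of fibre content in the results below was not tested.

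No integrin or laminin gene passed the test of K15SKO against MyoCre. The test was limma on log2(FPKM + 1) over the 11607 genes with a mean of at least 1 FPKM, two-sided, and a gene was called at a Benjamini-Hochberg adjusted p under 0.05. This held for 0.0517% of those genes. Of the members, 20 reached that level and 0 of 20 were called. At an unadjusted p under 0.05, 3 of the 20 were higher (Itga7, Itga5 and Itgb6) and 0 lower, where 16.5% of all genes tested passed, 8.43% higher and 8.12% lower. The 3 values of K15SKO and MyoCre did not overlap for 7 of the 39 members, all 7 higher in K15SKO. Among all 19183 rows above 0 in at least 3 libraries, 21.7% did not overlap, 12.3% higher and 9.34% lower. Of the 20 members tested 3 did not overlap, all higher, where 24.7% of all genes tested did not, 13.4% higher and 11.3% lower. With higher and lower counted together, both shares of members without overlap are under the background. Counted as higher alone, 7 of 39 is above 12.3% and 3 of 20 is above 13.4%, and 0 members were lower. At the unadjusted p, 3 of 20 higher is likewise above 8.43%. What follows describes the members without calling the family changed. The median log2 difference was 0.01 over the 39 members and 0.01 over the same 19183 rows.

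Without K15SKO 3, limma called 5 of the 20 members, against 23.6% of all genes tested. Of all genes tested 10.8% were called higher and 12.8% lower. The 5 members were Itga7, Itga5, Itgb1 and Itgb2, all higher, and Itgb5, lower, so their share was near the background there too. The labels give no ground to leave K15SKO 3 out. Over all alternatives tried, limma adjusted p ran from 0.00518 to 0.581 for Itga7, 0.0223 to 0.581 for Itga5, 0.0200 to 0.615 for Itgb1, 0.0231 to 0.636 for Itgb2 and 0.0142 to 0.634 for Itgb5. In K15SKO 3, 19 of the 39 members lay within the range of the MyoCre libraries, against 11 in K15SKO 1 and 11 in K15SKO 2. Over all genes tested the shares within that range were 38.6% in K15SKO 3, 19.6% in K15SKO 1 and 22.8% in K15SKO 2.

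**Figure D1:**
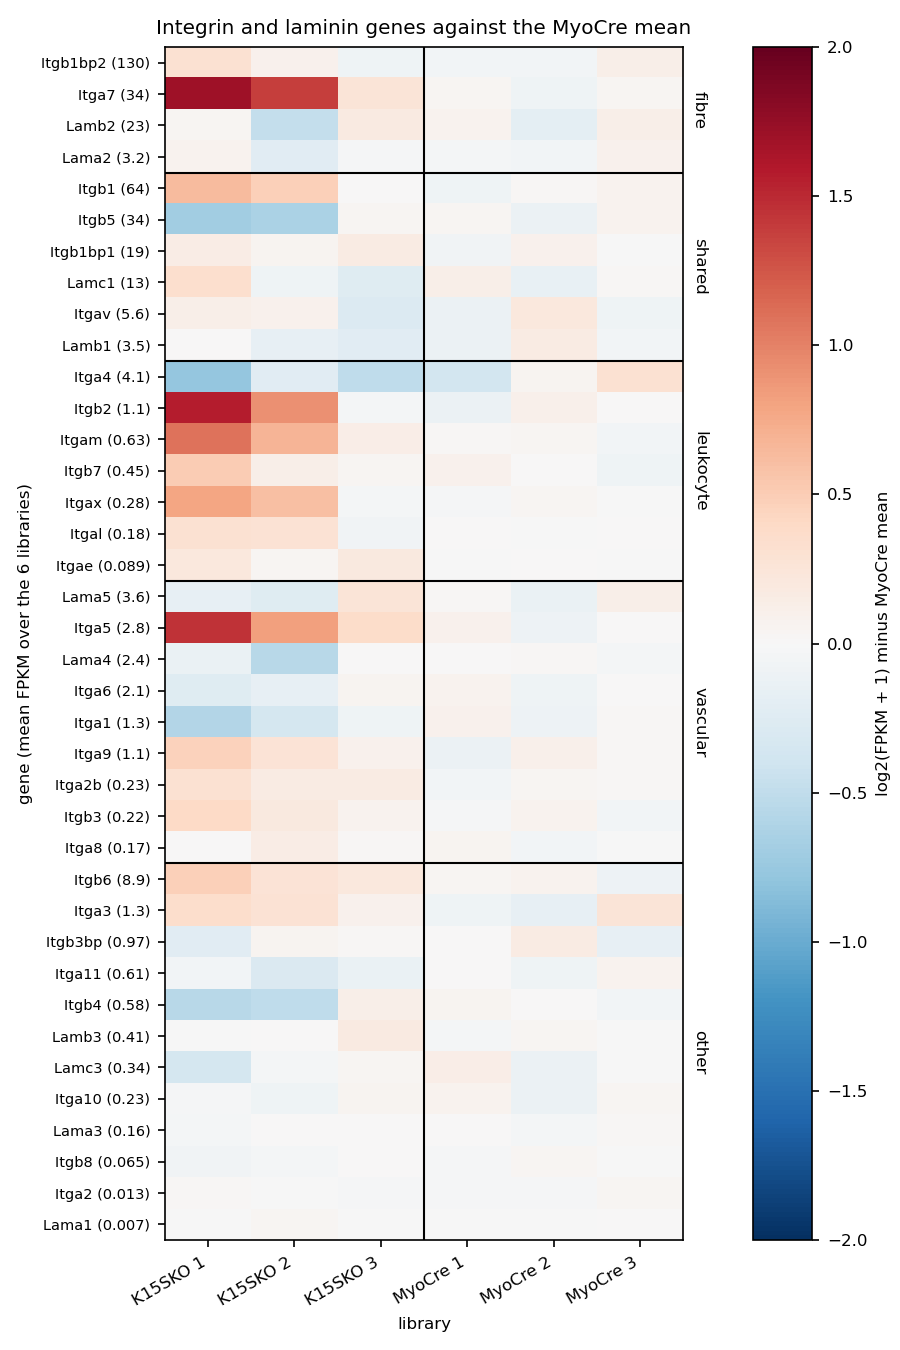
Log2(FPKM + 1) of 38 of the 39 genes in each library, minus the mean of the 3 MyoCre libraries, grouped by the cells that carry the chain, with the mean FPKM after each name. The strongest colours lie in K15SKO 1 and 2 at Itga7, Itgb2, Itgam and Itga5, and K15SKO 3 stays pale for most genes.

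Promoter sequence is shown for 4 chains the results turn on that RefSeq's table on GRCm38.p6 holds: Itga5 and Itgam, whose groups did not overlap, and Itgb1 and Itgb5, which ran in opposite directions in K15SKO 1 and 2. Of the 39 members 25 matched that table by symbol. Each run is the 250 bases before the annotated start, 5′ to 3′ on the gene's strand, at chr15:103366792-103367041 on the minus strand for Itga5 and at chr7:128062390-128062639, chr8:128685404-128685653 and chr16:33829415-33829664 on the plus strand for Itgam, Itgb1 and Itgb5. Capitals mark GAGGAA, a core bound by the myeloid factor PU.1, and CACCC, a core bound by Kruppel-like factors such as Klf15, each on either strand.
Itga5: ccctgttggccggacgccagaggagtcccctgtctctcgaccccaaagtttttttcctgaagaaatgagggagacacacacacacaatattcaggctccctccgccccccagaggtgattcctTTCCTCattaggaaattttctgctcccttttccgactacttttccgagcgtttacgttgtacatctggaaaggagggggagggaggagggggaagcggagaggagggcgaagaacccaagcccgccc
Itgam: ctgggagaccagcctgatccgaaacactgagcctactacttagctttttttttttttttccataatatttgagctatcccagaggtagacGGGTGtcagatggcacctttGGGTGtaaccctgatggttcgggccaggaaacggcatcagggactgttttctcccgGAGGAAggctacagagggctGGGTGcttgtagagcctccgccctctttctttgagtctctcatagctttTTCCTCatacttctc
Itgb1: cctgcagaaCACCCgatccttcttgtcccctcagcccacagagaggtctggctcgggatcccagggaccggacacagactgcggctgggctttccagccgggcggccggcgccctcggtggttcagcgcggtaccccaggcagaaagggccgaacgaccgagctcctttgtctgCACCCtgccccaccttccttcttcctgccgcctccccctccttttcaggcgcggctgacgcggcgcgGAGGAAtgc
Itgb5: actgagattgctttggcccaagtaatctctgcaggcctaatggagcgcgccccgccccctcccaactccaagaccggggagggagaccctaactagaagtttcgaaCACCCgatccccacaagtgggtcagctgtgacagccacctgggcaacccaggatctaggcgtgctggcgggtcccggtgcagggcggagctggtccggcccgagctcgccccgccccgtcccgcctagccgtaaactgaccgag
Itgam held GAGGAA 2 times and CACCC 3 times, Itga5 held GAGGAA 1 time and CACCC 0 times, Itgb1 held them 1 and 2 times and Itgb5 0 and 1 times. GAGGAA was present in 11 of the 25 member promoters and in 23.3% of all 32851 promoters of the same length. CACCC was present in 16 of the 25 and in 52.0% of all promoters. The matches describe letters in these windows and do not show binding.

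The receptor of the fibre itself was led by Itga7, the laminin-binding alpha chain of skeletal muscle. It stood at 66.9, 54.0 and 24.0 FPKM in K15SKO, against 20.5, 18.8 and 20.7 FPKM in MyoCre. All 3 K15SKO libraries lay above all 3 MyoCre libraries, and K15SKO 3 only narrowly. These are 3.34, 2.70 and 1.20 times the MyoCre mean. The mean was 48.3 ± 22.0 FPKM in K15SKO and 20.0 ± 1.04 FPKM in MyoCre (SD, n = 3 each), a log2 difference of 1.11 (SE 0.36, 95% interval 0.25 to 1.97, limma adjusted p = 0.273). Without K15SKO 3 the log2 difference was 1.54 (limma adjusted p = 0.00518), and without K15SKO 1 it was 0.82 (limma adjusted p = 0.567). Itga7 lies on the plus strand of chromosome 10 from 128933818 to 128958282 (GRCm38), where it shares exonic bases with Mettl7b on the opposite strand. Whether the counting used strand is not given here, so reads of that stretch cannot be told apart. In bulk tissue, a difference in the number of cells of a type and one in RNA per cell cannot be told apart either, here and for every chain that follows.

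Its partner Itgb1, the beta chain shared by most matrix-binding integrins in nearly all cells, stood at 86.5, 76.9 and 55.5 FPKM in K15SKO, against 52.1, 55.9 and 57.7 FPKM in MyoCre. K15SKO 1 and 2 lay above the MyoCre range and K15SKO 3 within it. The log2 difference was 0.37 (SE 0.18, 95% interval −0.06 to 0.80, limma adjusted p = 0.330) and 0.56 without K15SKO 3 (limma adjusted p = 0.0200). Without K15SKO 1 it was 0.24 (limma adjusted p = 0.615). The FPKM of Itga7 came to 0.636 ± 0.179 of that of Itgb1 in K15SKO and 0.363 ± 0.0289 in MyoCre (SD, n = 3 each). That ratio was above every MyoCre library in 3 of 3 K15SKO libraries, at 0.773, 0.702 and 0.433 against at most 0.394. Itgb1 lies on the plus strand of chromosome 8 from 128685654 to 128733200.

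Itgb1bp2, or melusin, a striated muscle protein that binds the tail of the beta 1 chain, had the highest level of the 39 genes. It stood at 157, 135 and 120 FPKM in K15SKO, against 122, 122 and 138 FPKM in MyoCre, with overlap between the groups (log2 difference 0.10, 95% interval −0.23 to 0.44). Itgb1bp1, which binds the same tail in most cells and restrains talin, was at 19.7, 18.4 and 19.9 FPKM in K15SKO, against 16.7, 18.8 and 17.7 FPKM in MyoCre. Its values overlapped too, and it shares exonic bases with Asap2 and Cpsf3 on the opposite strand.

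Itgb5, a beta chain that pairs with Itgav to bind vitronectin, ran the other way. It was at 23.6, 24.7 and 40.0 FPKM in K15SKO, against 40.1, 35.8 and 41.0 FPKM in MyoCre. K15SKO 1 and 2 lay below every MyoCre library and K15SKO 3 among them. The log2 difference was −0.43 (SE 0.21, 95% interval −0.94 to 0.08, limma adjusted p = 0.335) and −0.67 without K15SKO 3 (limma adjusted p = 0.0142). Without K15SKO 1 it was −0.30 (limma adjusted p = 0.634). Itgav itself stood at 6.18, 6.04 and 4.46 FPKM in K15SKO, against 5.09, 6.67 and 5.26 FPKM in MyoCre, with overlap, and it shares exonic bases with Gm13684 on the opposite strand. Itgb6, a beta chain that also pairs with Itgav and is best known from epithelium, stood at 11.2, 9.57 and 9.10 FPKM in K15SKO, against 7.95, 8.20 and 7.15 FPKM in MyoCre. The groups did not overlap, at a log2 difference of 0.32 (SE 0.11, limma adjusted p = 0.279). Cdh1, the epithelial cadherin, stood at 0.0336, 1.19 and 0.0940 FPKM in K15SKO, against 0.00898, 0.0904 and 0.0348 FPKM in MyoCre, and was thus near 0 in 5 of 6 libraries and highest where liver transcripts were highest.

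**Figure D2:**
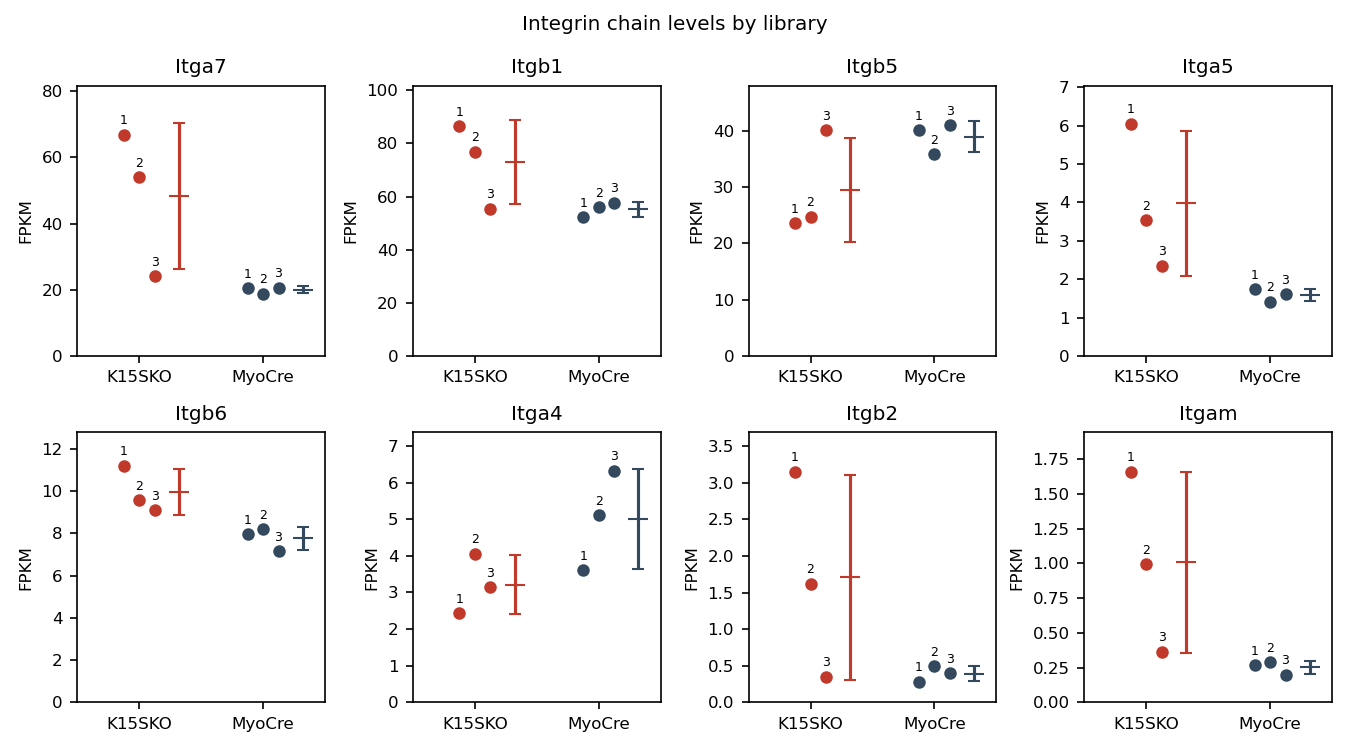
FPKM of 8 integrin chains in each library (points, numbered by replicate) with the group mean and SD (bars, n = 3 each), K15SKO left and MyoCre right. Itga7, Itga5, Itgb6 and Itgam have no overlap between the groups, and K15SKO 3 is the nearest K15SKO library to MyoCre in each of the 4.

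By share, the alpha chains of K15SKO libraries were more dominated by Itga7. Itga7 made up 72.9%, 70.6% and 57.4% of the summed alpha chain FPKM in K15SKO, against 53.3%, 48.4% and 49.4% in MyoCre. Itgb1 made up 68.6%, 67.6% and 52.1% of the summed beta chain FPKM in K15SKO, against 51.2%, 54.9% and 53.8% in MyoCre. Itgb5 made up 18.7%, 21.7% and 37.6% in K15SKO, against 39.4%, 35.2% and 38.2% in MyoCre. The alpha chains summed to 91.7, 76.5 and 41.9 FPKM in K15SKO and to 38.5, 38.8 and 41.9 FPKM in MyoCre. Shares add up to a fixed whole, so a higher share of 1 chain lowers those of the others.

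**Figure D3:**
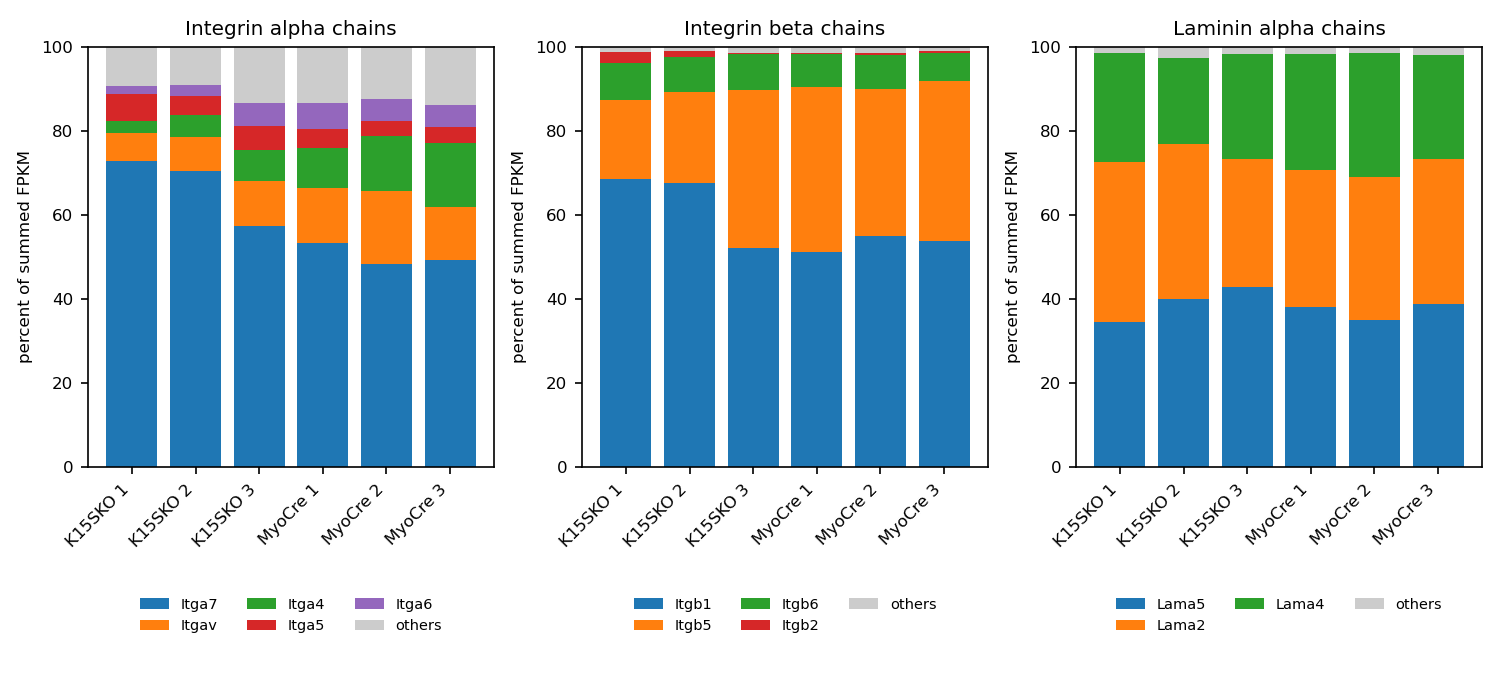
Percent of the summed FPKM of 17 integrin alpha chains, 8 integrin beta chains and 5 laminin alpha chains taken by the chains named, in each library. Itga7 and Itgb1 take larger shares in K15SKO 1 and 2, while Lama2, Lama4 and Lama5 divide the laminin alpha chains in every library.

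No laminin chain passed the test. Of the 11, the 6 tested had log2 differences between −0.23 and 0.01. An unadjusted limma p under 0.05 was met by 0 of 6, against 16.5% of all genes tested. A p that misses the threshold does not show that levels are equal, so the 95% intervals are given. Lama2, the alpha chain of the fibre's laminin, stood at 3.49, 2.68 and 3.22 FPKM in K15SKO, against 3.17, 3.14 and 3.56 FPKM in MyoCre. Its log2 difference of −0.06 had an interval of −0.34 to 0.22. Lamb2, a beta chain concentrated at the synapse and the mature basement membrane, stood at 24.0, 16.5 and 26.5 FPKM in K15SKO, against 24.5, 20.3 and 25.5 FPKM in MyoCre (−0.09 on the log2 scale, −0.55 to 0.38). K15SKO 2 was the lowest of the 6 libraries for both Lama2 and Lamb2, whose groups overlapped, and Lama2 shares exonic bases with Gm48084 on the opposite strand.

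Lamc1, the gamma chain of nearly all laminins, stood at 16.5, 12.0 and 10.7 FPKM in K15SKO, against 14.0, 11.5 and 13.0 FPKM in MyoCre (log2 difference 0.01, 95% interval −0.40 to 0.42). Lamb1, the widespread beta chain, was at 3.75, 3.19 and 3.04 FPKM in K15SKO, against 3.35, 4.30 and 3.54 FPKM in MyoCre, a log2 difference of −0.13 with an interval of −0.43 to 0.17. Both overlapped. Compared by level, which FPKM allows because it is per length, Lamb2 was 6.76 ± 1.80 times Lamb1 in K15SKO and 6.41 ± 1.46 times in MyoCre (SD, n = 3 each). Set against its ligand, Itga7 was at 19.2, 20.1 and 7.45 times the FPKM of Lama2 in K15SKO, against 6.48, 5.98 and 5.81 times in MyoCre. The receptor transcript was thus above the MyoCre range in K15SKO 1 and 2, where that of Lama2 was not. Lamc1, of the same laminin, was above that range in K15SKO 1 and within it in K15SKO 2.

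The vessel wall laminins were Lama4, of endothelial basement membranes, and Lama5, of mature vessels and the synapse. Lama4 stood at 2.36, 1.49 and 2.67 FPKM in K15SKO, against 2.69, 2.74 and 2.56 FPKM in MyoCre, with a log2 difference of −0.23 (95% interval −0.63 to 0.18). Lama5 stood at 3.15, 2.92 and 4.55 FPKM in K15SKO, against 3.71, 3.23 and 4.00 FPKM in MyoCre (−0.05, −0.43 to 0.34). For both, K15SKO 2 was the lowest library, and the groups overlapped. Among the laminin chains under 1 FPKM, the epithelial chains Lamb3 (0.345 to 0.555 FPKM) and Lama3 (0.130 to 0.177 FPKM) overlapped, as did Lamc3 (0.0924 to 0.519 FPKM) and the embryonic chain Lama1 (0 to 0.0290 FPKM).

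**Figure D4:**
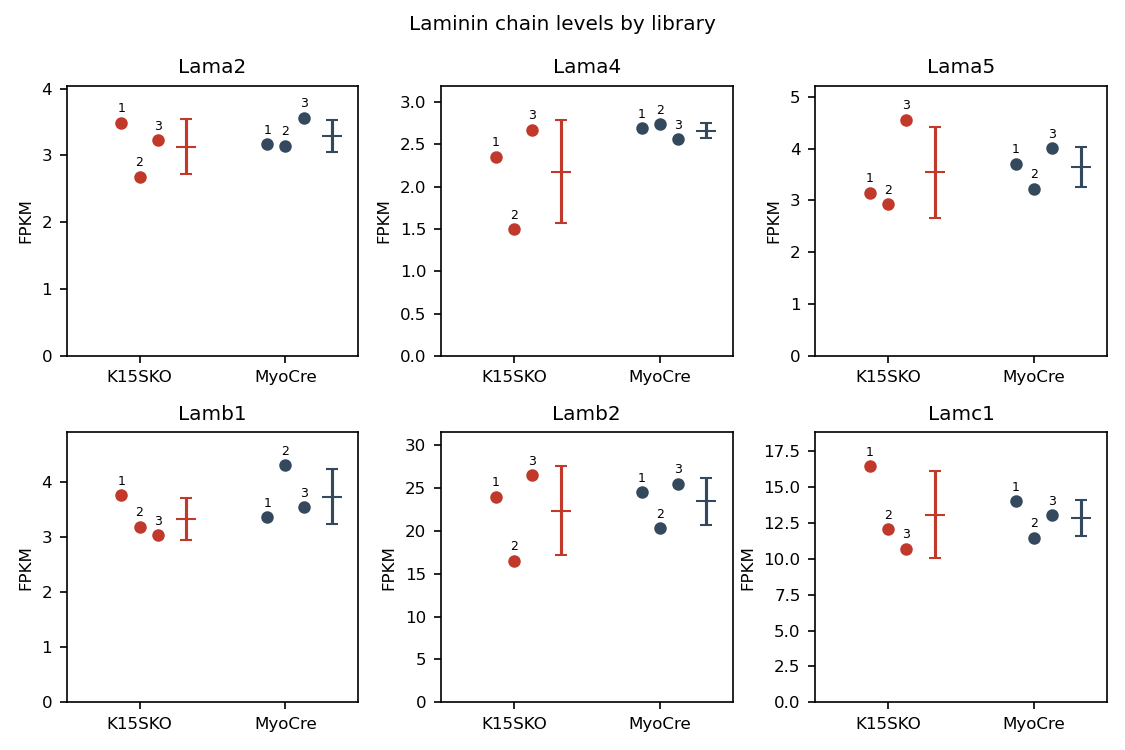
FPKM of the 6 laminin chains above a mean of 1 FPKM in each library (points, numbered by replicate) with the group mean and SD (bars, n = 3 each), K15SKO left and MyoCre right. The groups overlap for each of the 6, and K15SKO 2 is the lowest library for Lama2, Lama4, Lama5 and Lamb2.

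Among chains of vessels and platelets, Itga5, the fibronectin receptor alpha chain of endothelium and many migrating cells, had the largest log2(FPKM + 1) difference; by ratio of means Itgb3, at 2.56, was slightly larger. It stood at 6.05, 3.54 and 2.35 FPKM in K15SKO, against 1.74, 1.42 and 1.61 FPKM in MyoCre. Every K15SKO library lay above every MyoCre library. The mean was 3.98 ± 1.89 FPKM in K15SKO and 1.59 ± 0.165 FPKM in MyoCre (SD, n = 3 each), a log2 difference of 0.88 (SE 0.27, 95% interval 0.23 to 1.52, limma adjusted p = 0.272). Without K15SKO 3 it was 1.13 (limma adjusted p = 0.0223), and without K15SKO 1 it was 0.59 (limma adjusted p = 0.567). Its ligand Fn1, fibronectin, was at 19.7, 17.9 and 3.78 FPKM in K15SKO, against 3.91, 4.20 and 3.98 FPKM in MyoCre, so that K15SKO 3 lay below the MyoCre libraries there. Itga5 lies on the minus strand of chromosome 15 from 103344286 to 103366763.

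Itga1 and Itga6 had their low values in K15SKO 1 and 2. Itga1, a collagen and laminin receptor of capillaries and smooth muscle, stood at 0.690, 0.986 and 1.40 FPKM in K15SKO, against 1.70, 1.36 and 1.58 FPKM in MyoCre (log2 difference −0.34, limma adjusted p = 0.354), and it shares exonic bases with Gm49395. Itga6, a laminin receptor of endothelium and satellite cells, was at 1.73, 1.89 and 2.33 FPKM in K15SKO, against 2.40, 2.05 and 2.24 FPKM in MyoCre. Both were below the MyoCre range in K15SKO 1 and 2 and within it in K15SKO 3. The 10 endothelial markers summed to 60.5, 73.0 and 120 FPKM in K15SKO, against 109, 85.8 and 104 FPKM in MyoCre, low in the same libraries. The groups overlapped for 10 of 10 endothelial markers, where 24.7% of all genes tested did not overlap. The part of vessel content in the levels of Itga1 and Itga6 was not tested.

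Itga9, which binds tenascin and osteopontin and is needed for lymphatic valves, stood at 1.60, 1.27 and 1.01 FPKM in K15SKO, against 0.739, 1.01 and 0.908 FPKM in MyoCre, with overlap. The platelet chains were low. Itga2b was at 0.405, 0.283 and 0.283 FPKM in K15SKO, against 0.0951, 0.171 and 0.164 FPKM in MyoCre, without overlap. Its partner Itgb3 was at 0.484, 0.285 and 0.180 FPKM in K15SKO, against 0.109, 0.184 and 0.0778 FPKM in MyoCre, and K15SKO 3 lay just under the highest MyoCre library. The 4 platelet markers summed to 26.6, 11.5 and 5.02 FPKM in K15SKO, against 7.38, 7.94 and 5.48 FPKM in MyoCre, high in K15SKO 1 and 2 as Itgb3 was. Nearly all of that sum was Pf4, a platelet chemokine, at 26.1, 11.3 and 4.79 FPKM in K15SKO, against 7.13, 7.65 and 5.24 FPKM in MyoCre. Ppbp ran the other way, at 0.149, 0.0653 and 0.159 FPKM in K15SKO, against 0.254, 0.200 and 0.186 FPKM in MyoCre, without overlap. Gp1bb was at most 0.350 FPKM and Gp9 at most 0.0748 FPKM, each at 0 in 3 libraries. The part of platelet content was not tested. Itga8, of smooth muscle and mesenchyme, was at 0.103 to 0.267 FPKM with overlap. Without the filter on low values, 6 of the 39 members had an unadjusted limma p under 0.05, where 11.3% of all 23314 rows did, and 0 were called. Those rows include ones above 0 in fewer than 3 libraries, which the members leave out, so these shares have unlike bases.

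Leukocyte chains gave the largest folds of the family at low levels. Itgb2, the beta chain that pairs with Itgal, Itgam and Itgax, stood at 3.15, 1.62 and 0.351 FPKM in K15SKO, against 0.283, 0.493 and 0.402 FPKM in MyoCre. K15SKO 1 and 2 were 8.01 and 4.13 times the MyoCre mean, and K15SKO 3 lay within the MyoCre range. The log2 difference was 0.82 (SE 0.41, 95% interval −0.16 to 1.79, limma adjusted p = 0.337), and 1.25 without K15SKO 3 (limma adjusted p = 0.0231). Without K15SKO 1 it was 0.44 (limma adjusted p = 0.636). Itgam, the alpha chain of the complement receptor of macrophages and neutrophils, stood at 1.66, 0.995 and 0.365 FPKM in K15SKO, against 0.266, 0.288 and 0.200 FPKM in MyoCre. It did not overlap and lay under the level tested. It shares exonic bases on the same strand with Gm49368, which is the second row named Itgam, so its reads may be split. That second row held 0.0633 FPKM in K15SKO 1 and 0 in every other library. Itgam lies on the plus strand of chromosome 7 from 128062640 to 128118491.

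Itgax, of dendritic cells and activated macrophages, was at 0.838, 0.625 and 0.0428 FPKM in K15SKO, against 0.0463, 0.0976 and 0.0572 FPKM in MyoCre. Itgal, the alpha chain of the lymphocyte function antigen carried by most leukocytes, was at 0.364, 0.347 and 0.0509 FPKM in K15SKO, against 0.109, 0.0922 and 0.109 FPKM in MyoCre. For both, K15SKO 1 and 2 stood above the MyoCre range and K15SKO 3 below it. Itgb7, the beta chain of gut-homing lymphocytes, was at 0.893, 0.450 and 0.370 FPKM in K15SKO, against 0.413, 0.340 and 0.258 FPKM in MyoCre. Its partner Itgae was at 0.195, 0.0630 and 0.184 FPKM in K15SKO, against 0.0292, 0.0422 and 0.0228 FPKM in MyoCre. Itgae did not overlap, and K15SKO 1 and 3 were its high libraries.

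Itga4, which pairs with Itgb1 or Itgb7 and is carried by lymphocytes, monocytes and some mesenchymal cells, was not high in K15SKO 1 and 2, unlike the other leukocyte chains. It stood at 2.44, 4.06 and 3.14 FPKM in K15SKO, against 3.60, 5.11 and 6.33 FPKM in MyoCre, with overlap and a log2 difference of −0.50 (limma adjusted p = 0.307). It shares exonic bases with Cerkl on the opposite strand.

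The 6 leukocyte chains other than Itga4 summed to 7.10, 4.10 and 1.36 FPKM in K15SKO, against 1.15, 1.35 and 1.05 FPKM in MyoCre. With Itga4, the 7 chains summed to 9.54, 8.16 and 4.51 FPKM in K15SKO, against 4.75, 6.47 and 7.37 FPKM in MyoCre. K15SKO 3 then lay below the MyoCre range. The 10 macrophage markers summed to 341, 190 and 39.8 FPKM in K15SKO, against 52.0, 49.1 and 43.2 FPKM in MyoCre. The groups overlapped for 10 of 10 macrophage markers, where 21.7% of all rows above 0 in at least 3 libraries did not overlap. The chain sums, with or without Itga4, and the macrophage sum ran in the same order through the K15SKO libraries. The part of macrophage content in the chain levels was not tested. Cd68, a lysosomal protein of macrophages, was at 43.8, 43.6 and 1.24 FPKM in K15SKO, against 0.895 to 1.45 FPKM in MyoCre, and no macrophage marker was at 0 in any library. Neutrophil markers summed to 2.97, 0.607 and 0.216 FPKM in K15SKO and 0.594 to 0.735 FPKM in MyoCre. Lymphocyte markers summed to at most 0.339 FPKM in K15SKO and at most 0.502 FPKM in MyoCre, with Cd3d, Cd3e, Ms4a1, Cd79a and Nkg7 each at 0 in at least 1 library.

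**Figure D5:**
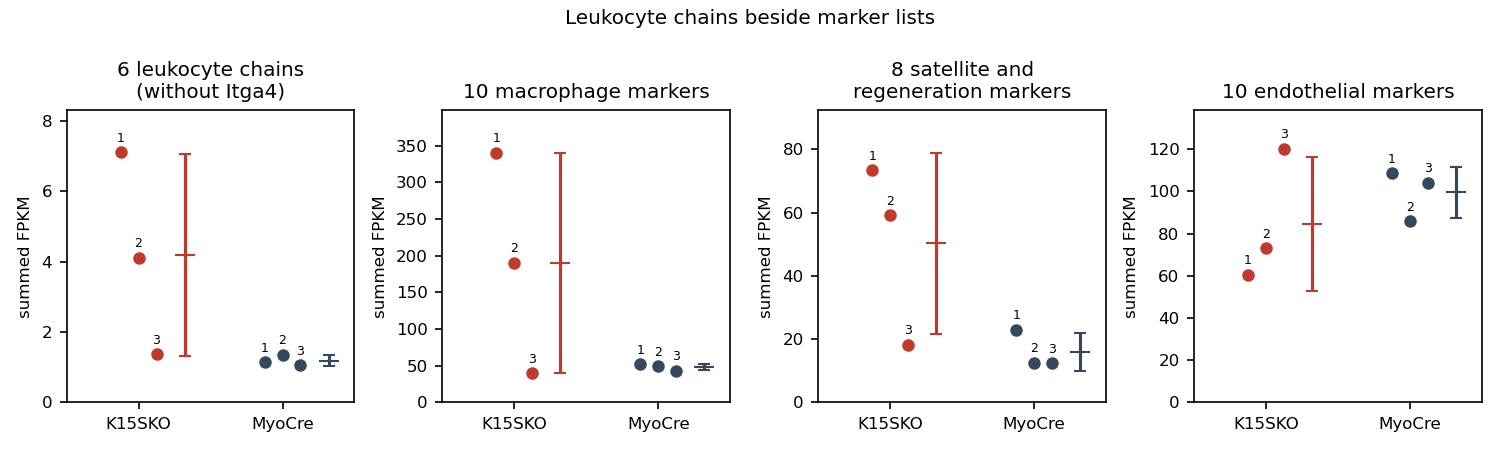
Summed FPKM in each library (points, numbered by replicate) with the group mean and SD (bars, n = 3 each) of 6 leukocyte chains, Itga4 left out, and of lists of macrophage, satellite cell and regeneration, and endothelial markers. K15SKO 1 and 2 are high in the first 3 panels and low in the last, and K15SKO 3 lies near MyoCre in the first 3.

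Markers of other cells that ran with Itga7 through the K15SKO libraries came from more than 1 list. The 8 markers of satellite cells and regenerating fibres summed to 73.5, 59.2 and 18.2 FPKM in K15SKO, against 22.9, 12.6 and 12.4 FPKM in MyoCre. Of the 6 tested, 5 had an unadjusted limma p under 0.05, all higher, and 0 were called; these 5 of the 8 did not overlap. Over all genes the shares were 16.5% at that p and 21.7% without overlap. Myog, the myogenin gene of differentiating muscle, was at 31.9, 27.3 and 3.90 FPKM in K15SKO, against 2.36, 2.20 and 1.84 FPKM in MyoCre. Pax7, the defining marker of satellite cells, was at 0.685, 0.573 and 0.460 FPKM in K15SKO, against 0.642, 0.578 and 0.633 FPKM in MyoCre, with overlap. The 6 tendon markers summed to 64.6, 33.2 and 27.9 FPKM in K15SKO, against 24.1, 22.5 and 20.7 FPKM in MyoCre, without overlap. Scx and Thbs4, a tendon transcription factor and a matrix protein, were the 2 of 6 that did not overlap, and 2 of the 5 tested had an unadjusted limma p under 0.05, both higher. The 8 fibro-adipogenic markers summed to 356, 246 and 214 FPKM in K15SKO, against 249, 263 and 227 FPKM in MyoCre, and the 8 mural cell markers to 76.6, 75.0 and 121 FPKM in K15SKO, against 92.8, 85.9 and 84.3 FPKM in MyoCre. The first of these was above the MyoCre range in K15SKO 1 and below it in K15SKO 3. The mural sum was below that range in K15SKO 1 and 2 and above it in K15SKO 3. Of the 8 fibro-adipogenic markers, Pi16, Dcn and Pdgfra were lower without overlap, as were 9.34% of all rows above 0 in at least 3 libraries. Col1a1, Col3a1, Mfap5 and Lum ran the other way with overlap, at log2 differences of 1.53, 1.42, 0.70 and 0.58. Ly6a was at −0.26 with overlap, and the median of the list was 0.24. At an unadjusted limma p under 0.05, 2 of these 8 were lower and 0 higher, against 8.12% and 8.43% of all genes tested. Of the 8 mural markers 1, Acta2, was higher without overlap, and it alone passed that p. The part of regenerating fibres, tendon or these cells in the level of Itga7 was not tested.

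Of the remaining chains, Itga3, a laminin receptor of epithelium, stood at 1.69, 1.59 and 1.25 FPKM in K15SKO, against 0.990, 0.878 and 1.51 FPKM in MyoCre, with overlap. Itgb4, the partner of Itga6 in epithelium and nerve sheath, was at 0.176, 0.220 and 0.887 FPKM in K15SKO, against 0.800, 0.736 and 0.674 FPKM in MyoCre. K15SKO 1 and 2 lay below the MyoCre range and K15SKO 3 above it. The 6 nerve sheath markers summed to 21.3, 17.4 and 44.7 FPKM in K15SKO, against 33.4, 38.9 and 30.3 FPKM in MyoCre, low and high in the same libraries, and the part of nerve content was not tested. Itga11 and Itga10, collagen receptors of fibroblasts and cartilage, lay at 0.390 to 0.772 and 0.140 to 0.292 FPKM, and Itgb3bp, a centromere protein named for binding Itgb3, at 0.714 to 1.24 FPKM. Itgb8, a beta chain that activates TGF-beta with Itgav, lay at 0.0248 to 0.107 FPKM and the collagen receptor Itga2 at 0 to 0.0417 FPKM, all with overlap.

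Inside the cell, the adhesion complex that integrins hold on to was read from a list of 30 genes. Of the 24 rows tested, 0 were called, and 4 were higher and 0 lower at an unadjusted limma p under 0.05, against 8.43% and 8.12% of all genes tested. Flnc, the muscle filamin, stood at 288, 182 and 183 FPKM in K15SKO, against 128, 89.2 and 123 FPKM in MyoCre (limma adjusted p = 0.269). Ilk, integrin-linked kinase, stood at 34.2, 29.8 and 26.0 FPKM in K15SKO, against 21.4, 21.4 and 23.0 FPKM in MyoCre (limma adjusted p = 0.272). Tln1, talin 1, was at 20.8, 15.9 and 14.99 FPKM in K15SKO, against 12.0, 11.03 and 13.9 FPKM in MyoCre, and Actn1, a cytoplasmic alpha-actinin, at 2.19 to 2.39 FPKM in K15SKO and 1.46 to 1.81 FPKM in MyoCre. None of these 4 overlapped, and K15SKO 3 lay above MyoCre in each. They were named for having the smallest p, which favours groups without overlap. Of the 24 rows tested, 5 were higher and 0 lower without overlap. Among all genes tested 24.7% did not overlap, 13.4% higher and 11.3% lower. The median log2 difference of the list was 0.10, against 0.01 over all rows above 0 in at least 3 libraries.

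The basement membrane list of 16 genes had 12 tested, of which 0 were called. At an unadjusted limma p under 0.05, 1 was higher and 0 lower, against 8.43% and 8.12% of all genes tested. That 1 was Nid2, a nidogen that ties laminin to collagen IV, at 2.61, 2.26 and 1.79 FPKM in K15SKO, against 1.62, 1.42 and 1.51 FPKM in MyoCre. Col4a1, a collagen IV chain, stood at 16.8, 16.7 and 13.3 FPKM in K15SKO, against 13.4, 10.8 and 13.4 FPKM in MyoCre, with overlap. Agrn, the heparan sulfate proteoglycan agrin, did not overlap, at 2.25 to 2.97 FPKM in K15SKO and 1.89 to 2.18 FPKM in MyoCre. Col18a1 was at 2.15, 14.9 and 1.27 FPKM in K15SKO, high where liver transcripts were highest, against 1.10 to 1.34 FPKM in MyoCre.

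Of 24 other integrin ligands and membrane partners, 23 were found and 21 tested, with 0 called. At an unadjusted limma p under 0.05, 2 were higher and 1 lower, against 8.43% and 8.12% of all genes tested. Jam3, a junctional adhesion molecule that binds Itgam, stood at 4.79, 3.69 and 4.17 FPKM in K15SKO, against 2.21, 2.76 and 2.30 FPKM in MyoCre (limma adjusted p = 0.248). Npnt, nephronectin, a matrix ligand of Itga8, stood at 4.78, 4.79 and 2.69 FPKM in K15SKO, against 7.08, 9.96 and 7.90 FPKM in MyoCre (limma adjusted p = 0.255). Spp1, osteopontin, a ligand of Itgav, Itga9 and Itga4 integrins, stood at 19.5, 13.8 and 0.895 FPKM in K15SKO, against 0.636, 0.794 and 0.584 FPKM in MyoCre. Cd47, a membrane protein that associates with Itgb3, was at 20.8, 19.6 and 11.1 FPKM in K15SKO, against 10.7, 12.2 and 9.85 FPKM in MyoCre. The first 3 did not overlap, Spp1 with K15SKO 3 only just above, and Cd47 overlapped. Of the 21 tested, 5 were higher and 3 lower without overlap, against 13.4% and 11.3% of all genes tested. Fga, Fgb and Fgg, highest in K15SKO 2 as the liver genes were, were among the 5.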

How the data were processed

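RNA sequencing libraries of mouse quadriceps were grouped by their titles and genotype labels into 3 K15SKO and 3 MyoCre samples. The tools named, per the submitters' processing notes, are STAR, Cufflinks and Cuffdiff, with the mm10 build; their versions and settings are not given here. What the authors deposited is 1 FPKM matrix of 23314 rows, whose unit is read from those tools and the values. FPKM keeps no counts, so low values carry an unknown counting error, and an exact 0 can be a failed estimate. Columns were matched by sample description; 0 columns belonged to no sample.

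The test was a two-sided limma fit (limma 3.58.1, R 4.3.3, eBayes with trend) of log2(FPKM + 1) for the 11607 genes whose mean reached 1 FPKM, and p was adjusted over all of them by Benjamini-Hochberg. A log2 difference on this scale is K15SKO minus MyoCre and understates changes of low genes. Coordinates and exon overlaps came from GENCODE M21 (GRCm38, the assembly of mm10), which holds 39 of 39 member IDs without the version. The fit was tested on simulated data. Python 3.11.15 (pandas 2.3.3, scipy 1.17.1, matplotlib 3.10.9) made the tables and plots.

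The members, their classes and the lists of partners and markers were chosen with earlier results of these data known. The members are accounted for by name, except 1 that is not reported here, with library values for those with a mean of at least 1 FPKM and for some lower ones chosen after their values were seen (Itgam, Itgax, Itgal, Itgb7, Itgae, Itga2b, Itgb3 and Itgb4). Of each partner list, the 4 tested genes with the smallest p were named; Fn1 and Cdh1 were added after their values were seen. Alternatives were other pseudocounts (0.1, 0.5), filters (none, 5 FPKM), scalings and eBayes settings, a term for replicate number and leaving out each library; leaving out genes at 0 in a whole group was added after seeing the data.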

Additional observations from a re-analysis of the deposited data

How the results depend on the processing

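The count of 0 members called with limma held in 15 of 16 alternatives and was 5 in the other, without K15SKO 3; the unadjusted count was 3. Leaving out 1 library at a time gave 0 to 5 members and 3 to 2743 genes called. K15SKO 3 decided the upper ends, and the count of genes was 3 without MyoCre 1 and 3 without MyoCre 2. The 6 genes called in all became 3 with no filter, 3 with the replicate block and 0 without genes at 0 in a whole group. That last setting tested 11505 genes, of which 1930 had an unadjusted limma p under 0.05, against 1920 of 11607 in the main test. The cause was not tested for any of these settings. Over the 20 members tested, 294 of 309 values kept their direction and side of the threshold, 5 passed it without K15SKO 3 and 10 changed sign, all of members near 0. With 1 library left out, Lamc1 ran between −0.16 and 0.13, Lama5 between −0.20 and 0.050, Lamb2 between −0.22 and 0.11, Lama2 between −0.12 and 0.022 and Itgav between −0.10 and 0.10; Lamc1 was −0.018 after quantile normalization. Adjusted p of Klf15 ran from 0.0947 to 0.581.

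The median of the 7 leukocyte chains was 0.22 and became 0.87 with a pseudocount of 0.1 and 0.12 without K15SKO 1 (0.12 to 0.31 with 1 library left out); that of the 9 vascular chains was 0.06, and became 0.27 with that pseudocount and −0.0027 after quantile normalization (0.040 to 0.092 with 1 library left out). The median of the 10 fibre and shared chains was −0.01 and ran between −0.11 and 0.10 with 1 library left out. The median of the 13 other chains was −0.0043, and became −0.057 after quantile normalization and 0.32 over the 1 gene with a mean of at least 5 FPKM (−0.012 to 0.0093 with 1 library left out). A smaller pseudocount weighs low genes more by construction; otherwise the cause was not tested.

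Deviations of same-numbered libraries correlated at 0.0024, 0.0851 and 0.0942, and those of differently numbered libraries at −0.0949 to 0.00659. With 3 libraries per group, these values cannot show whether the numbers pair the samples. With the replicate block 0 members were called. Depth limits the chains under 1 FPKM, where few reads stand behind a value.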
